A study of Mus musculus with 6 samples.

Results

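The matrix metalloproteinases, the ADAMTS proteinases, the ADAMTS-like proteins and the tissue inhibitors of metalloproteinases were followed in the mouse ovarian surface epithelium line ID8 with and without Trp53. The members were all genes of the count table whose symbol is Mmp, Adamts, Adamtsl or Timp followed by a number, which gave 51 of 41327 genes: 23 Mmp, 19 Adamts, 5 Adamtsl and 4 Timp genes. Total RNA was sequenced by a stranded protocol in 3 libraries of genotype Trp53-/- (Trp53_KO) and 3 of genotype Trp53+/+ (Trp53_WT). Both groups were immortalized, untreated, asynchronously growing ID8 cells of strain C57BL/6 origin, and no other allele or agent is named for either. The labels do not say which part of Trp53 was altered, whether each genotype is 1 clone, or whether replicates were separate cultures, so a p-value here reflects how far single libraries scatter, and that scatter may be purely technical.

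Matrix metalloproteinases are zinc-dependent enzymes that cut collagens, laminins, fibronectin and other proteins of the extracellular matrix. Most are secreted as inactive precursors, and a membrane-anchored group works at the cell surface. ADAMTS proteinases carry thrombospondin repeats that hold them in the matrix, where they trim proteoglycans such as versican, remove the amino-terminal propeptides of procollagens or act on microfibrils. ADAMTS-like proteins share those repeats but have no catalytic domain, and TIMPs are small secreted proteins that block the catalytic zinc. In the ovary, enzymes of these families open the follicle wall at ovulation and act in the repair of the surface epithelium.

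The libraries held 15319956 to 19954170 counts. Replicates of Trp53_KO differed from each other with a chi-square of their counts, per degree of freedom, of 4.27 to 8.81. Trp53_WT replicate 1 stood apart from its own group, at 27.5 and 26.9 against the other libraries of Trp53_WT, which were at 2.01 to each other. Levels are given as CPM, the counts of a gene relative to the TMM-scaled total of its library, and each adjusted p comes from edgeR's quasi-likelihood test over 13651 genes with the Benjamini-Hochberg method and a threshold of 0.05. Trp53 itself had 29.6, 25.5 and 25.3 CPM in the Trp53_KO libraries, against 110.1, 97.3 and 105 CPM in the Trp53_WT libraries. Of 16 markers of ovarian surface and mesothelial cells, 13 were tested, 7 were higher and 4 were lower in Trp53_KO. Over all tested genes 14.1% were higher and 16.1% lower. The summed level of these markers was 3915 to 4210 CPM in Trp53_KO and 3675 to 3761 CPM in Trp53_WT. Among them, Bnc1 had 0.0726 CPM in Trp53_KO and 38.9 CPM in Trp53_WT, whereas Lrrn4 had 65.5 CPM in Trp53_KO and 0.235 CPM in Trp53_WT.

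ADAMTS transcripts were mostly higher in Trp53_KO, collagenase-3 and several other MMP transcripts were lower, and the TIMPs moved by less than 2-fold. Of the 25 members that passed the filter on low counts, 14 were higher in Trp53_KO, where 14.1% of all tested genes were higher, and 9 were lower, where 16.1% of all tested genes were lower. In either direction 23 members passed the test, against 30.3% of all tested genes. With a change of at least 2-fold, 7 members were higher (4.6% of all tested genes) and 5 were lower (4.62% of all tested genes). For 23 of the 25, all libraries of one genotype lay above all of the other, against 46% of all tested genes. The members that passed the filter are not all members: 26 of the 51 were not tested, and Adamts16, Adamts3 and Mmp14 reached 10 counts in every library of Trp53_KO only and Mmp23 in every library of Trp53_WT only, so that these 4 entered through one group. Of the 21 that reached 10 counts in every library of both groups 20 passed the test, beside 28.7% of the 12464 genes of that kind. Without Trp53_WT replicate 1 the same 23 members passed.

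**Figure D1:**
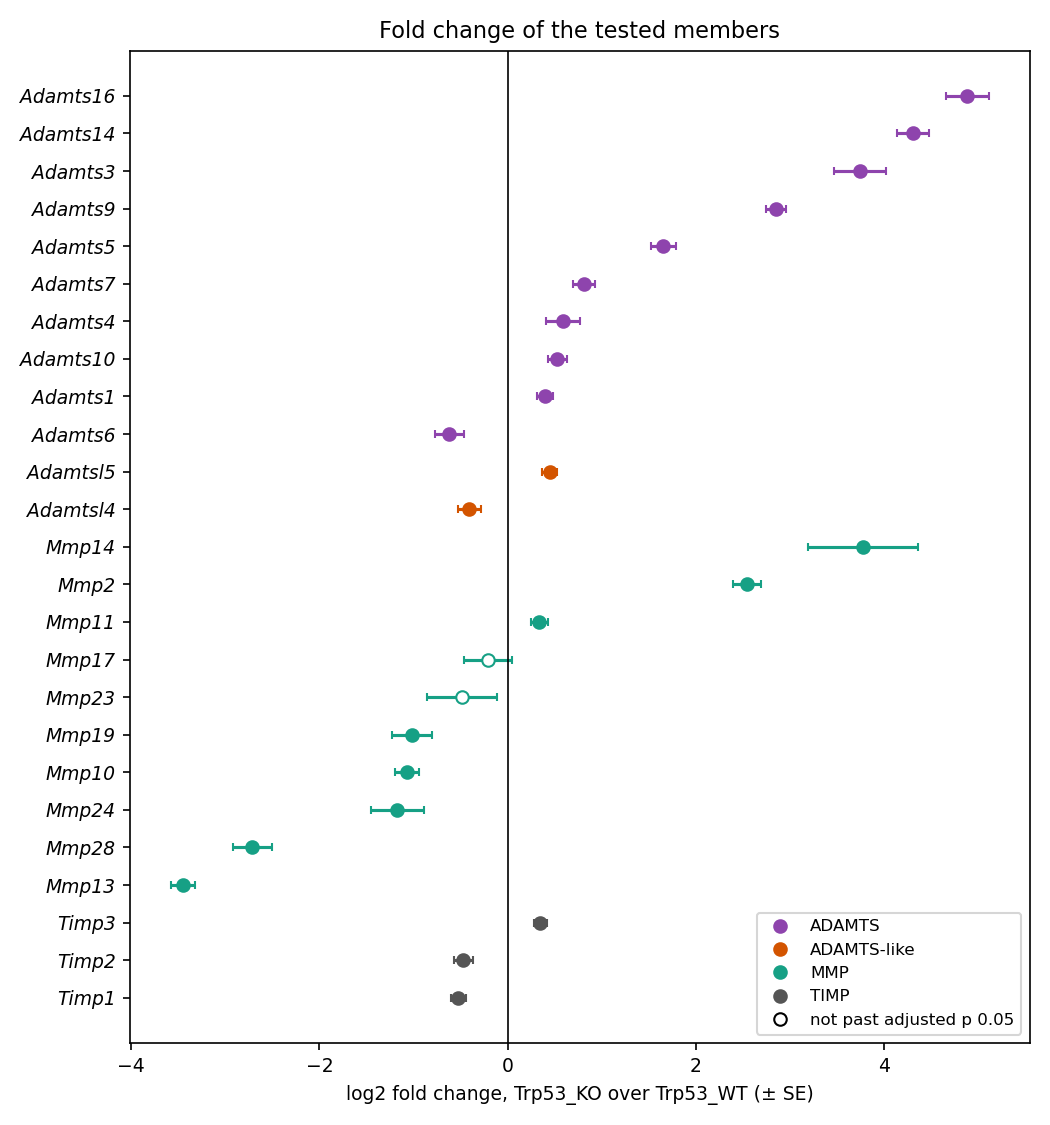
Log2 fold change of Trp53_KO over Trp53_WT (x axis) for the 25 tested members, grouped by family, with bars of 1 SE from 3 libraries per genotype and open points for members that did not pass an adjusted p of 0.05. Of the 10 ADAMTS genes 9 lie to the right of 0 with Adamts16 farthest at 4.88, and Mmp13 lies farthest to the left at -3.45.

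The families differed in how their summed transcript share moved. ADAMTS genes together had 794, 706 and 728 CPM in the Trp53_KO libraries, against 396, 395 and 407 CPM in the Trp53_WT libraries. MMP genes together had 97.1, 81.1 and 90.4 CPM in Trp53_KO, against 133, 135 and 129 CPM in Trp53_WT. The groups did not overlap in either sum, with ADAMTS above and MMP below in Trp53_KO. Adamts9 averaged 191 CPM in Trp53_KO and 26.6 CPM in Trp53_WT, and Adamts1 379 CPM in Trp53_KO and 288 CPM in Trp53_WT. Most of the gap between the ADAMTS sums came from Adamts9 and Adamts1, although 9 of the 10 tested ADAMTS genes were higher. Mmp13 alone averaged 4.06 CPM in Trp53_KO and 44.2 CPM in Trp53_WT, a gap about as large as that between the MMP sums. The lower MMP sum is therefore mostly that of 1 gene, and among the tested MMP genes 3 were higher and 5 lower. TIMP genes together had 1178, 1076 and 1051 CPM in Trp53_KO, against 1540, 1258 and 1278 CPM in Trp53_WT, also without overlap. ADAMTS-like genes had 36.7, 32.6 and 36.5 CPM in Trp53_KO, against 36.0, 34.0 and 32.5 CPM in Trp53_WT, and there the groups overlapped. In cultures sequenced in bulk, fewer cells with a transcript and less of it per cell cannot be told apart.

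**Figure D2:**
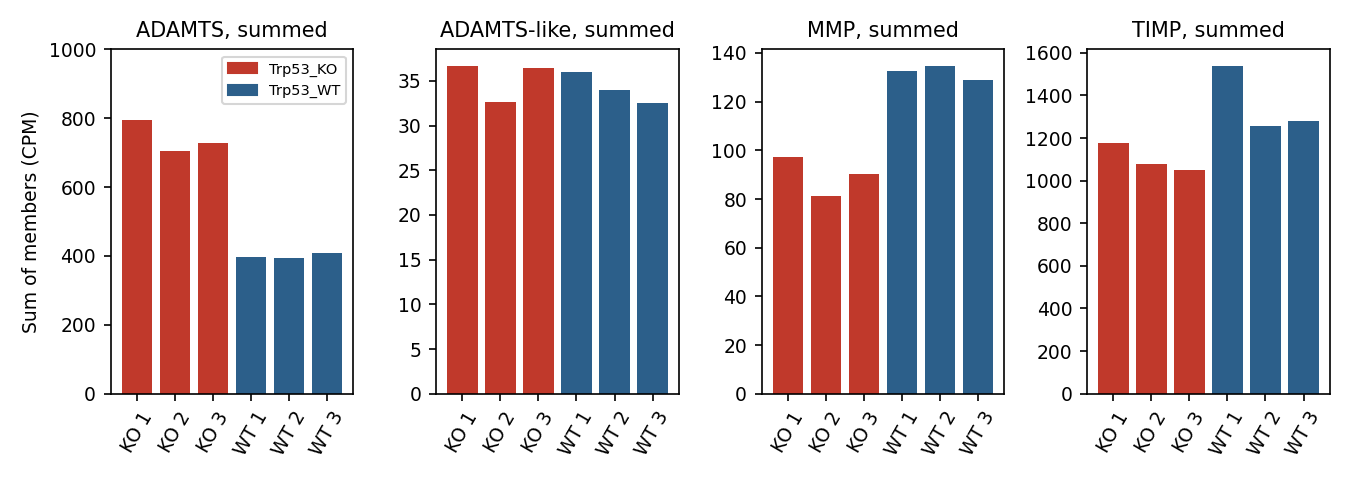
Sum of CPM over all members of each family (y axis, linear from 0, a scale per panel) in each of the 3 Trp53_KO and 3 Trp53_WT libraries (x axis). The ADAMTS bars reach 706 to 794 CPM in Trp53_KO and 395 to 407 CPM in Trp53_WT, and the highest TIMP bar is Trp53_WT replicate 1 at 1540 CPM.

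Per kilobase of annotated exon, the inhibitors Timp2 and Timp1 led in both genotypes. Timp2 had 191 CPM per kb in Trp53_KO and 265 CPM per kb in Trp53_WT, and Timp1 had 80.6 CPM per kb in Trp53_KO and 116 CPM per kb in Trp53_WT. Adamts1 was the highest proteinase, at 71.4 CPM per kb in Trp53_KO and 54.3 CPM per kb in Trp53_WT. Below Timp3, at 35.0 CPM per kb in Trp53_KO and 27.5 CPM per kb in Trp53_WT, the order of the proteinases changed with genotype. In Trp53_KO, Mmp11 (20.1 CPM per kb), Adamts9 (12.7 CPM per kb), Adamts7 (8.52 CPM per kb) and Mmp10 (7.16 CPM per kb) followed. In Trp53_WT, Mmp13 (16.5 CPM per kb), Mmp11 (15.9 CPM per kb) and Mmp10 (15.0 CPM per kb) followed, and Adamts9 had 1.77 CPM per kb. The exon lengths are those of the union of annotated exons, and which isoforms the cells used was not measured.

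**Figure D3:**
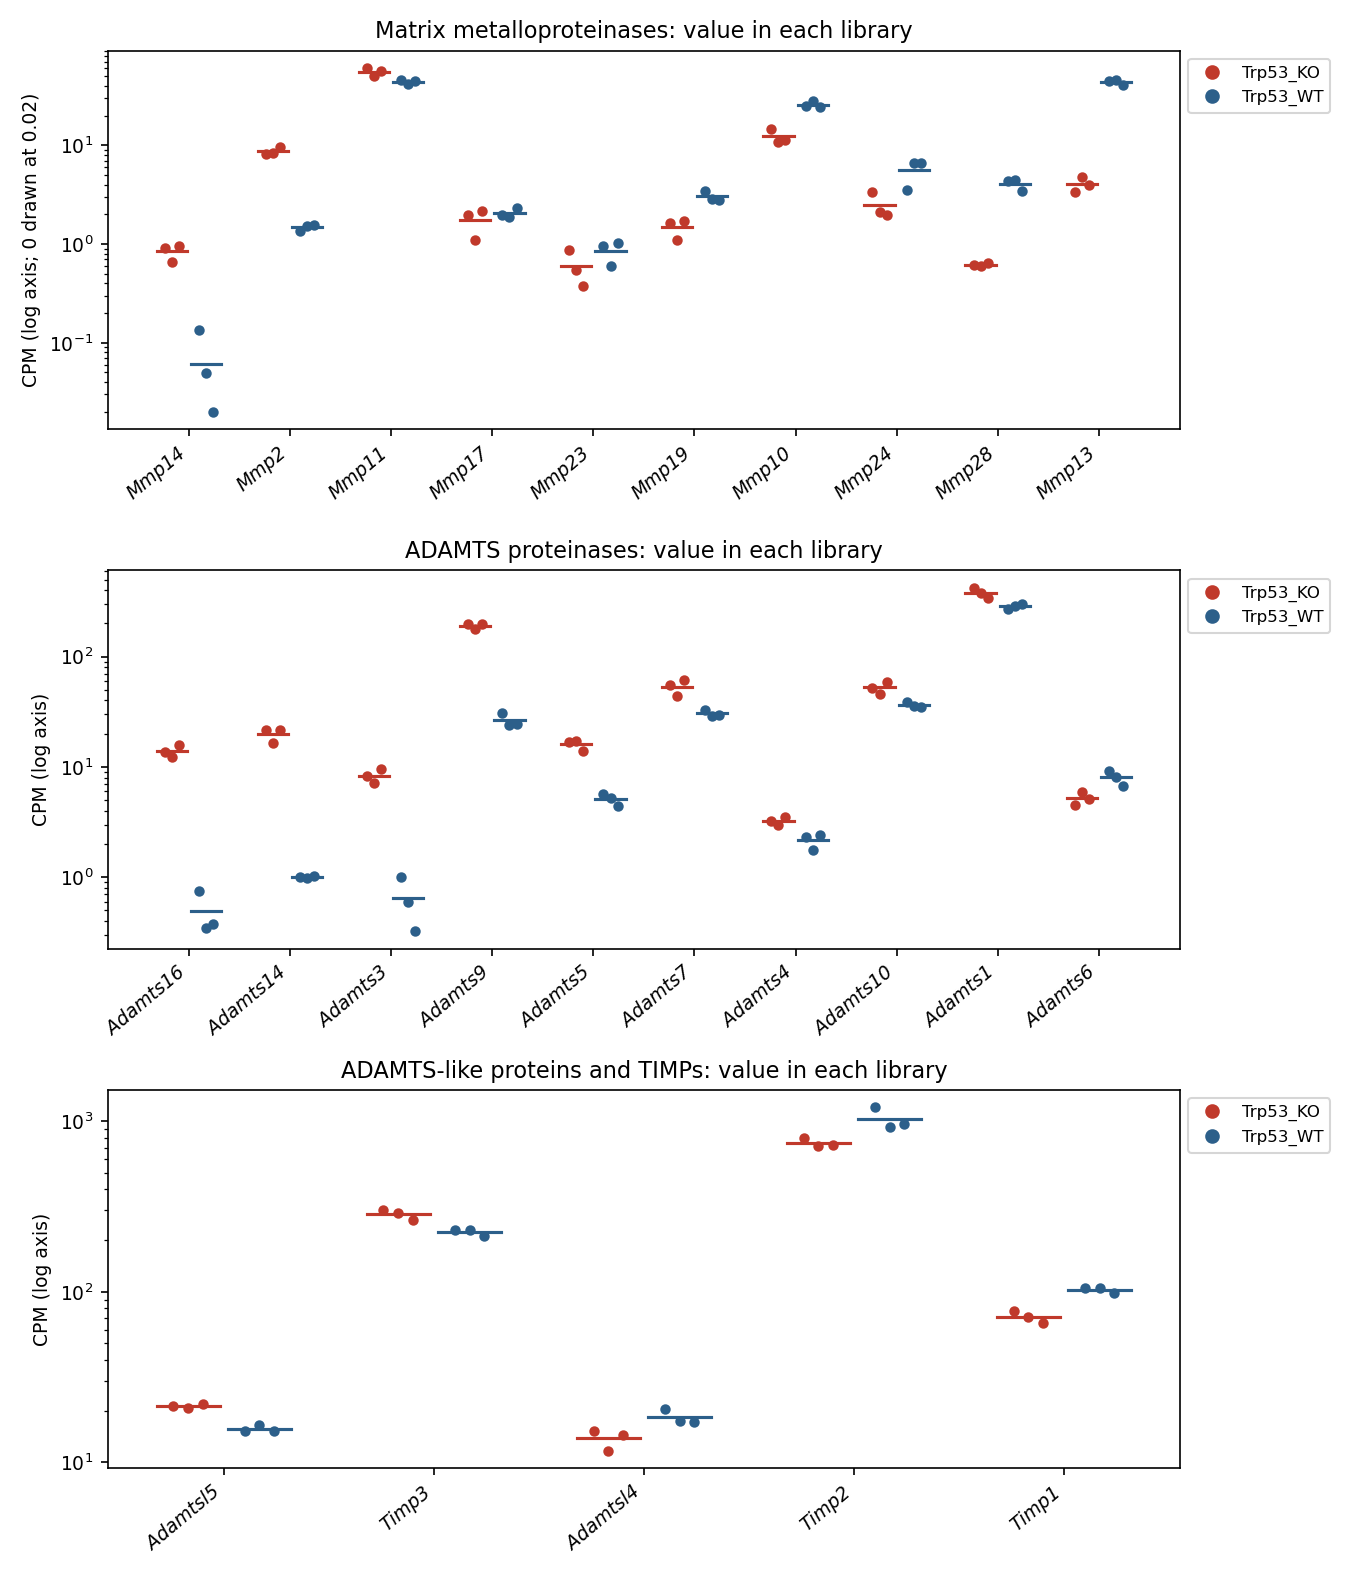
CPM of each tested member (y axis, log scale, with a library at 0 drawn at 0.02) in 3 Trp53_KO (red) and 3 Trp53_WT (blue) libraries, with a bar at each group mean. Mmp13 falls to 3.37 to 4.83 CPM in Trp53_KO against 41.2 to 46.0 CPM in Trp53_WT, whereas Adamts9 lies at 179 to 198 CPM in Trp53_KO against 24.2 to 30.9 CPM in Trp53_WT.

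The only collagenase with more than a few reads was Mmp13, collagenase-3, which cuts fibrillar collagen. It had 3.37, 4.83 and 3.99 CPM in the Trp53_KO libraries, against 45.3, 46.0 and 41.2 CPM in the Trp53_WT libraries. Every Trp53_KO library was far below every Trp53_WT library. The means were 4.06 ± 0.735 CPM in Trp53_KO and 44.2 ± 2.59 CPM in Trp53_WT (SD, n = 3 each). This was -3.45 ± 0.13 (SE) as a log2 fold change, with an edgeR adjusted p of 5.65e-08. The other collagenases were not tested: Mmp8 had 1 count in Trp53_KO and 0 in Trp53_WT, and Mmp1a and Mmp1b had no count.

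Mmp13 lies in a cluster of 10 Mmp genes within 427 kb of chromosome 9 (mm10, chr9:7272514-7699585), of which few had reads. Along the cluster, the summed counts over 3 libraries were 221 in Trp53_KO and 2371 in Trp53_WT for Mmp13, 4 in Trp53_KO and 21 in Trp53_WT for Mmp3, and 683 in Trp53_KO and 1396 in Trp53_WT for Mmp10. These sums were lower in Trp53_KO for each of the named genes, of which Mmp3 was not tested. The other genes of the cluster held at most 5 counts per group, and 4 of the 10, Mmp1b, Mmp1a, Mmp20 and Mmp7, had none. Since the genes are near neighbours, their changes are not independent observations of the cluster.

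**Figure D4:**
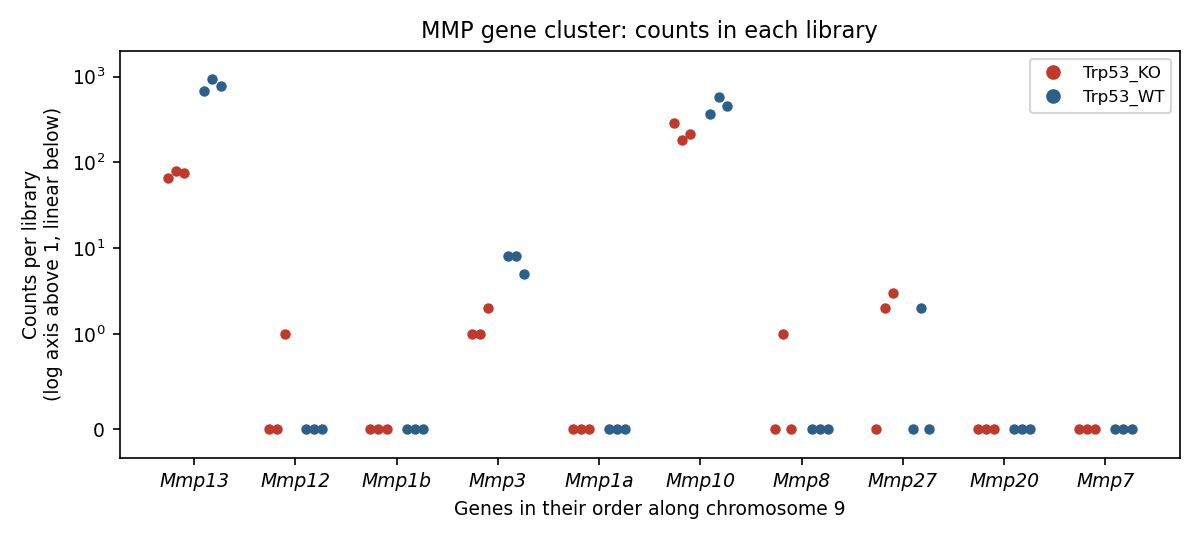
Counts in each Trp53_KO (red) and Trp53_WT (blue) library (y axis, log scale above 1 and linear below) for the 10 Mmp genes in their order along chromosome 9 (x axis). Mmp13, Mmp3 and Mmp10 hold the reads of the cluster and are lower in all Trp53_KO libraries, while Mmp27 has at most 3 counts in any library.

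The stretches just upstream of these genes are shown because they share a short pattern that most promoters lack. The sequences are the 150 bases before the RefSeq start (build GRCm38.p6, plus strand) of Mmp13 (chr9:7272364-7272513), Mmp10 (chr9:7502192-7502341) and Mmp3 (chr9:7445672-7445821), with capitals for TGANTCA, the letters known as the recognition sequence of AP-1 factors, and for TATAAA, the letters of a TATA box.
Mmp13: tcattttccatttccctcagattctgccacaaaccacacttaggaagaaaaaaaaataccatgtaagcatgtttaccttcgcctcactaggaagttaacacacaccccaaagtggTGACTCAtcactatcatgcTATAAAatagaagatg
Mmp10: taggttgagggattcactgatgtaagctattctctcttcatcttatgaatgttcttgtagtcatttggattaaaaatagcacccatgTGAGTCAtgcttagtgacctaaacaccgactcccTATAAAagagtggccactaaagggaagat
Mmp3: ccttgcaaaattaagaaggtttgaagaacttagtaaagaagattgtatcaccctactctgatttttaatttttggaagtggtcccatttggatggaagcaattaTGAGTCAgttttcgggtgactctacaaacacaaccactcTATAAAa
Windows of 250 bases before to 50 after the start were found for 36 of the 51 members, in 39 windows, and both strands were searched for each motif, TATAAA also as TTTATA and TGANTCA as itself, since it reads the same on both strands. TGANTCA was in 8 member windows (20.5%) and in 2565 of all 32851 windows (7.81%), and both motifs stood together in 8 member windows (20.5%) and in 507 of all windows (1.54%). All 8 of those members were genes of the chromosome 9 cluster, in which TATAAA began 19 to 48 bases after TGANTCA. The first base of TGANTCA lay at -35 for Mmp13, -63 for Mmp10 and -46 for Mmp3, counted from the RefSeq start. That of TATAAA lay at -16 for Mmp13, -29 for Mmp10 and -7 for Mmp3. Whether these cells used the RefSeq starts was not measured. Mmp8 and Mmp27 had no TGANTCA in the window, and Mmp1a, Mmp1b, Mmp20 and Mmp7 had it without a single count. A match describes letters only.

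Among the stromelysins, of which Mmp3 and Mmp10 cut proteoglycans, laminin and fibronectin and activate other pro-MMPs, the members differed in direction. Mmp10, stromelysin-2, had 14.7, 10.9 and 11.4 CPM in Trp53_KO, against 25.0, 28.2 and 24.3 CPM in Trp53_WT, without overlap. Its means of 12.3 ± 2.10 CPM in Trp53_KO and 25.9 ± 2.08 CPM in Trp53_WT gave a log2 fold change of -1.07 ± 0.13 (edgeR adjusted p = 0.000157). Mmp3, stromelysin-1, did not reach the filter, with 1, 1 and 2 counts in Trp53_KO, against 8, 8 and 5 counts in Trp53_WT. The ratio of Trp53_WT to Trp53_KO was 5.38 (exact 95% interval 1.81 to 21.5, counting error only). Mmp11, stromelysin-3, had 60.8, 50.0 and 56.6 CPM in Trp53_KO, against 46.0, 41.8 and 44.9 CPM in Trp53_WT, so every Trp53_KO library was the higher. Its log2 fold change was 0.34 ± 0.09 (edgeR adjusted p = 0.0188), and the adjusted p was 0.0914 without Trp53_KO replicate 1, 0.0613 without Trp53_KO replicate 3 and 0.0748 without Trp53_WT replicate 2. Exons of Mmp11 overlap those of Chchd10 on the opposite strand, which also rose (log2 fold change 0.75, edgeR adjusted p = 0.000148). Whether counting used strand is not given in the sources used here, so reads of the overlap cannot be assigned to either gene.

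The gelatinase Mmp2, which cuts denatured collagen and basement membrane collagen, had 8.26, 8.27 and 9.57 CPM in Trp53_KO, against 1.35, 1.53 and 1.55 CPM in Trp53_WT, and no library of one group came near the other. The log2 fold change was 2.54 ± 0.15 (edgeR adjusted p = 1.33e-06). The second gelatinase, Mmp9, was close to absent, with 3, 1 and 1 counts in Trp53_KO, against 0, 0 and 1 count in Trp53_WT. Mmp14, a membrane-anchored MMP that activates the MMP2 precursor with the help of TIMP2, moved in the same direction as Mmp2 at a far lower level. It had 18, 11 and 18 counts in Trp53_KO, against 2, 1 and 0 counts in Trp53_WT. The ratio of Trp53_KO to Trp53_WT was 15.3 (exact 95% interval 4.92 to 76.8, counting error only), and the fitted log2 fold change was 3.77 ± 0.58 (edgeR adjusted p = 0.000874). Without Trp53_WT replicate 1 that value was 4.73, and a filter of 1 CPM in 3 libraries removed the gene.

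None of the other membrane-type MMPs passed the test in the direction of Mmp14, and Mmp15, Mmp16 and Mmp25 were not tested. Mmp24 had 3.37, 2.11 and 1.97 CPM in Trp53_KO, against 3.51, 6.58 and 6.59 CPM in Trp53_WT, where replicate 1 lay just above the highest Trp53_KO library. Its log2 fold change was -1.17 ± 0.28 (edgeR adjusted p = 0.0107), -1.39 without Trp53_WT replicate 1. The call was lost without Trp53_KO replicate 2 (adjusted p = 0.0591) and without Trp53_KO replicate 3 (adjusted p = 0.053). Mmp17, anchored by a lipid tail, averaged 1.75 ± 0.584 CPM in Trp53_KO and 2.05 ± 0.227 CPM in Trp53_WT, groups that overlapped (log2 fold change -0.21 ± 0.25, edgeR adjusted p = 0.58). Mmp15 stayed below the filter with 7, 12 and 11 counts in Trp53_KO, against 4, 4 and 8 counts in Trp53_WT, overlapping at 7 and 8 counts. The ratio of Trp53_KO to Trp53_WT was 1.83, with an exact 95% interval of 0.967 to 3.6 that includes no difference. Mmp16 had 1 count in Trp53_KO and 0 in Trp53_WT, and Mmp25 had 2 counts in Trp53_KO and 0 in Trp53_WT.

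Of the remaining MMPs, Mmp28 and Mmp19 fell. Mmp28, epilysin, an MMP first described in skin, had 0.612, 0.604 and 0.638 CPM in Trp53_KO, against 4.39, 4.45 and 3.43 CPM in Trp53_WT, with all Trp53_KO libraries close together and low. Its log2 fold change was -2.71 ± 0.21 (edgeR adjusted p = 8.61e-06). Mmp19, which cuts basement membrane proteins, had 1.63, 1.09 and 1.70 CPM in Trp53_KO, against 3.44, 2.87 and 2.79 CPM in Trp53_WT, without overlap. The log2 fold change was -1.02 ± 0.21 (edgeR adjusted p = 0.00472), and its exons overlap those of Tmem198b on the opposite strand, which did not pass the test. Mmp23 lay at the filter with 17, 9 and 7 counts in Trp53_KO, against 14, 12 and 19 counts in Trp53_WT, and the groups overlapped (log2 fold change -0.48 ± 0.37, edgeR adjusted p = 0.366). Mmp12, Mmp21 and Mmp27 had 1 to 7 counts over all 6 libraries.

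Of the ADAMTS proteinases that cleave proteoglycans, 4 of the 7 were tested and all 4 rose, with a summed level over all 7 of 555 to 638 CPM in Trp53_KO and 312 to 334 CPM in Trp53_WT. Adamts9, which cleaves versican and is also needed for cilium formation, had 196, 179 and 198 CPM in Trp53_KO, against 30.9, 24.2 and 24.6 CPM in Trp53_WT. The groups stood far apart, with means of 191 ± 10.2 CPM in Trp53_KO and 26.6 ± 3.77 CPM in Trp53_WT (log2 fold change 2.85 ± 0.10, edgeR adjusted p = 5.68e-08). Adamts5, the main aggrecan-cleaving enzyme of mouse cartilage, had 16.7, 17.3 and 14.0 CPM in Trp53_KO, against 5.67, 5.19 and 4.45 CPM in Trp53_WT. No Trp53_KO library was near the Trp53_WT range (log2 fold change 1.65 ± 0.13, edgeR adjusted p = 1.13e-05). Adamts1, required for normal ovulation in mice, had 422, 374 and 340.0 CPM in Trp53_KO, against 273, 289 and 303 CPM in Trp53_WT. Those groups were close but did not overlap (log2 fold change 0.39 ± 0.08, edgeR adjusted p = 0.00631). Adamts4, another aggrecan-cleaving enzyme, averaged 3.23 ± 0.276 CPM in Trp53_KO and 2.16 ± 0.336 CPM in Trp53_WT (log2 fold change 0.59 ± 0.18, edgeR adjusted p = 0.0315). Its call was lost without Trp53_KO replicate 1 (adjusted p = 0.0854), without Trp53_KO replicate 3 (0.102), without Trp53_WT replicate 2 (0.125) and with DESeq2 (0.101). Adamts8 had 1 count in each genotype, and Adamts15 and Adamts20 had none.

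The procollagen N-propeptidases, which remove the amino-terminal propeptides of fibrillar procollagens before fibrils form, were all low in Trp53_WT. Adamts14 had 21.7, 16.6 and 21.5 CPM in Trp53_KO, against 1.01, 0.989 and 1.02 CPM in Trp53_WT, values that hardly varied in Trp53_WT. The log2 fold change was 4.30 ± 0.17 (edgeR adjusted p = 9.74e-08). Adamts3, which also activates the lymphatic growth factor VEGF-C, had 8.21, 7.12 and 9.63 CPM in Trp53_KO, against 1.01, 0.593 and 0.322 CPM in Trp53_WT. All Trp53_KO libraries were the higher by a wide margin (log2 fold change 3.74 ± 0.27, edgeR adjusted p = 6.07e-06). Adamts2 did not reach the filter, with 8, 8 and 7 counts in Trp53_KO, against 1, 1 and 0 counts in Trp53_WT. The ratio of Trp53_KO to Trp53_WT was 11.2 (exact 95% interval 2.77 to 98.3, counting error only), and with no filter Adamts2 passed at an edgeR adjusted p of 0.00103. Together the 3 genes had 24.2 to 31.5 CPM in Trp53_KO and 1.34 to 2.09 CPM in Trp53_WT.

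The upstream stretches of Adamts14, Adamts3 and Adamts9 are shown beside those of Mmp13 and its neighbours because they are of the opposite kind, rich in CG dinucleotides, which are in capitals. Each is the 150 bases before the RefSeq start (build GRCm38.p6, minus strand, written 5′ to 3′ along the gene) of Adamts14 (chr10:61273420-61273569), Adamts3 (chr5:89883335-89883484) and Adamts9 (chr6:92943535-92943684).
Adamts14: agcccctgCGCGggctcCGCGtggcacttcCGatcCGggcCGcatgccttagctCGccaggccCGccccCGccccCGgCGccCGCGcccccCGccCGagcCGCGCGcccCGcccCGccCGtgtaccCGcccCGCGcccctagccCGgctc
Adamts3: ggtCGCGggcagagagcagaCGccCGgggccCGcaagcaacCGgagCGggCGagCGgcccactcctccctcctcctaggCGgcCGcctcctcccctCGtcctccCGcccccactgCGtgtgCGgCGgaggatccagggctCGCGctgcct
Adamts9: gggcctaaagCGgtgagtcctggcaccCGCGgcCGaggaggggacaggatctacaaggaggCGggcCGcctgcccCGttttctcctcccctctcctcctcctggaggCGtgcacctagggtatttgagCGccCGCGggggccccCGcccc
These 150 bases held 26 CG dinucleotides in Adamts14, 18 in Adamts3 and 12 in Adamts9, against 1 each in Mmp13, Mmp10 and Mmp3. The G and C content was 84.7% in Adamts14, 76.7% in Adamts3 and 71.3% in Adamts9, and 38.7% in Mmp13, 39.3% in Mmp10 and 35.3% in Mmp3. Neither TGANTCA nor TATAAA was in the windows of these Adamts genes. The split does not hold over the members as a whole: windows of the 8 higher members with an entry held 10 to 44 CG dinucleotides, and those of the 7 lower members 1 to 44, with a median of 17 over all member windows and 7 over all windows.

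Of the other ADAMTS proteinases, 4 of 9 were tested, of which 3 rose and 1 fell. Adamts16 had 13.6, 12.3 and 15.9 CPM in Trp53_KO, against 0.743, 0.346 and 0.375 CPM in Trp53_WT, so that the transcript was nearly restricted to Trp53_KO. The log2 fold change of 4.88 ± 0.23 (edgeR adjusted p = 3.16e-07) was the largest among the tested members. Adamts7, which cleaves cartilage oligomeric matrix protein, had 55.4, 43.9 and 61.1 CPM in Trp53_KO, against 32.8, 29.0 and 29.8 CPM in Trp53_WT, without overlap. Its log2 fold change was 0.81 ± 0.12 (edgeR adjusted p = 0.000682), and its exons overlap those of Tbc1d2b on the opposite strand, which did not pass the test. Adamts10, which binds fibrillin microfibrils, had 52.3, 45.9 and 59.3 CPM in Trp53_KO, against 39.2, 35.5 and 34.8 CPM in Trp53_WT, again without overlap (log2 fold change 0.53 ± 0.10, edgeR adjusted p = 0.0038). Adamts6, the close relative of Adamts10, went the opposite way, at 5.22 ± 0.721 CPM in Trp53_KO and 8.04 ± 1.25 CPM in Trp53_WT (log2 fold change -0.62 ± 0.16, edgeR adjusted p = 0.0145). That call was lost without Trp53_KO replicate 1 (adjusted p = 0.0701) and without Trp53_KO replicate 3 (0.0512). Adamts12, Adamts13 and Adamts17 had 1 to 5 counts over all libraries, and Adamts18 and Adamts19 had none.

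The ADAMTS-like proteins had 1 member higher and 1 lower. Adamtsl5 had 21.4, 20.9 and 22.0 CPM in Trp53_KO, against 15.3, 16.5 and 15.3 CPM in Trp53_WT, tight groups without overlap (log2 fold change 0.45 ± 0.08, edgeR adjusted p = 0.00274). Adamtsl4, a microfibril-binding protein whose loss displaces the lens in humans, had 15.3, 11.7 and 14.5 CPM in Trp53_KO, against 20.7, 17.5 and 17.2 CPM in Trp53_WT. Every Trp53_KO library was the lower (log2 fold change -0.41 ± 0.12, edgeR adjusted p = 0.0344). The adjusted p of Adamtsl4 was 0.0961 without Trp53_KO replicate 2, 0.0689 without Trp53_KO replicate 3 and 0.054 without Trp53_WT replicate 2. Adamtsl2 had 1 count in Trp53_KO and 0 in Trp53_WT, and Adamtsl1 and Adamtsl3 had none.

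The inhibitors moved by small amounts and in both directions. Timp1, a secreted inhibitor that is weak against membrane-type MMPs, had 77.6, 71.2 and 65.9 CPM in Trp53_KO, against 105, 105 and 99.1 CPM in Trp53_WT. Timp2, which both inhibits MMP2 and takes part in activating its precursor, had 797, 715 and 723 CPM in Trp53_KO, against 1206, 923 and 966 CPM in Trp53_WT. Both were lower in every Trp53_KO library, by a log2 fold change of -0.52 ± 0.08 for Timp1 (edgeR adjusted p = 0.000678) and -0.47 ± 0.10 for Timp2 (edgeR adjusted p = 0.00655), and Timp2 gave -0.34 without Trp53_WT replicate 1, its highest library. Timp3, which binds to the matrix and also blocks ADAMTS4, ADAMTS5 and ADAM17, had 303, 290.2 and 262 CPM in Trp53_KO, against 229, 231 and 213 CPM in Trp53_WT. It was the only TIMP that rose, with a log2 fold change of 0.35 ± 0.07 (edgeR adjusted p = 0.0049). Timp4 had no count in Trp53_KO and 0, 0 and 1 count in Trp53_WT. Timp1, Timp3 and Timp4 lie inside synapsin genes: Syn1, on the strand opposite Timp1 with no shared exon, was lower (log2 fold change -2.44, edgeR adjusted p = 0.032), and Syn3 at Timp3 did not pass the test. Cep295nl, within an intron of Timp2 on its strand, was lower by a log2 fold change of -0.41 (edgeR adjusted p = 0.0229).

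The deposited table of repeats gave a view of reads inside the genes, most of it in introns for the members described here. It lists a log2 fold change and an FDR per repeat locus and read direction. The direction was taken from the ending of each locus name. That ending matched the gene strand for 88% of 38905 loci in exons and 3′ untranslated regions. The depth behind each value is unknown. In the authors' deposited table, 699 loci lay in 34 members. With an FDR under 0.05 as the threshold, the authors' deposited table has 62 of these higher in Trp53_KO (8.87%) and 3 lower, against 0.31% higher and 0.264% lower of the 661822 loci in genes. Most were in Adamts9 with 42 and Adamts16 with 12, and of the 490 loci in the other members 8 were higher in the authors' deposited table (1.63%).

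In Adamts9 the change ran over the whole gene body. Of 168 loci read in the direction of the gene, 165 had a fold above 0 in the authors' deposited table, with a median of 2.57, beside 2.85 for the gene counts. Of these loci, 158 lay in introns, and 35 of the intronic loci passed in the authors' deposited table, so intronic sequence read in the direction of Adamts9 was also higher in Trp53_KO. Loci of 1 gene share its transcript and are not independent.

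Adamts16 had reads in both directions. In the direction of the gene, all 31 loci had a fold above 0 in the authors' deposited table (median 3.9) and 8 passed. The gene counts of Adamts16 summed to 770 in Trp53_KO and 25 in Trp53_WT, so few Trp53_WT reads were available to these loci. Their shared direction is therefore no separate evidence beside the gene counts. Against the direction of the gene, 7 loci stood together in a block of 10.6 kb of introns (mm10, chr13:70736912-70747480), 94.4 to 105 kb from the annotated gene start. No locus in the direction of the gene lay between them, and 4 of the 7 passed in the authors' deposited table. The strongest were a Tigger13a element, with a log2 fold change of 6.18 and an FDR of 2.24e-42, and an ORR1F element, with 7.65 and 1.01e-23, in the authors' deposited table. The annotated antisense genes at the ends of Adamts16, Gm36607 and Gm36529, lie outside this block.

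**Figure D5:**
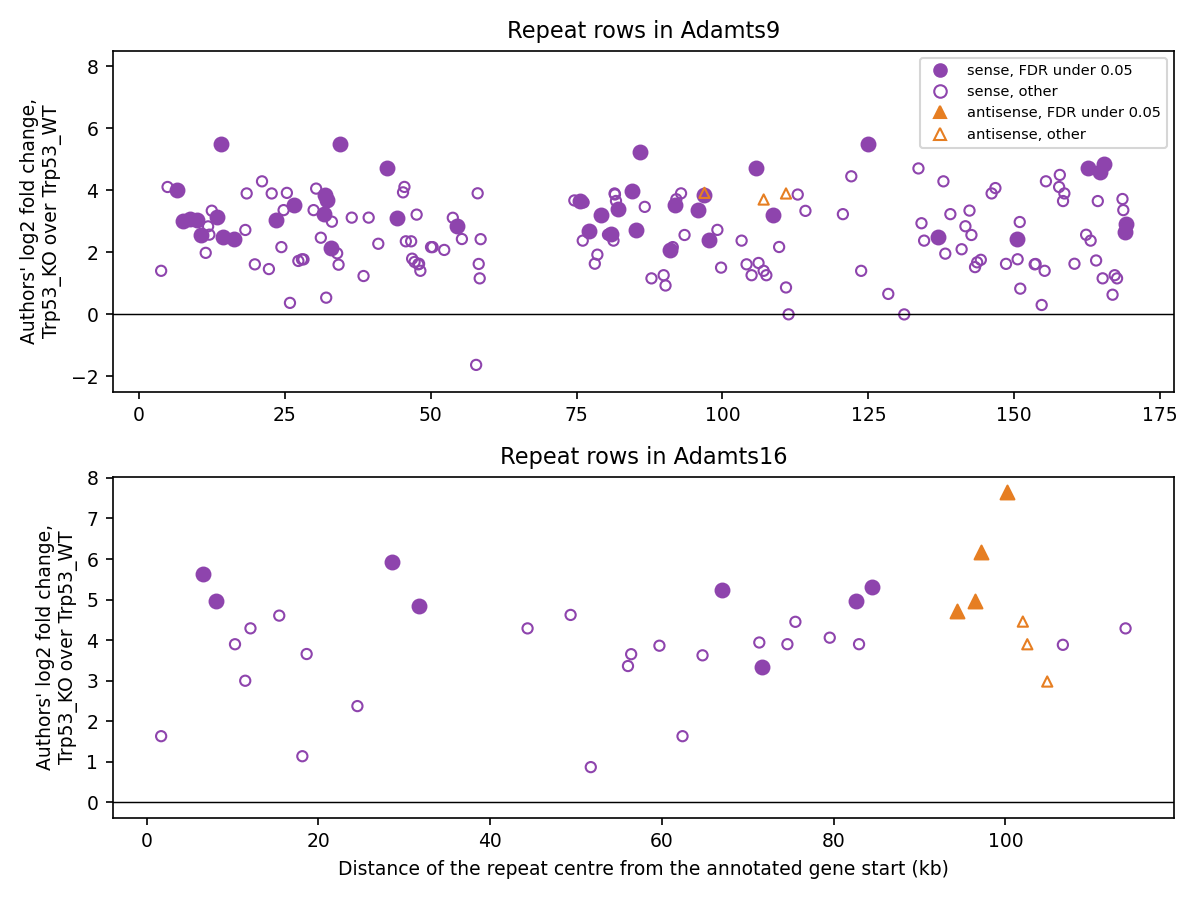
Log2 fold change of each repeat locus in the authors' deposited table (y axis) against its distance from the annotated start of Adamts9 (top) or Adamts16 (bottom) in kb (x axis), as circles for reads in the direction of the gene and triangles for reads against it, filled where the FDR is under 0.05. Of 168 Adamts9 circles 165 lie above 0, and the 7 Adamts16 triangles stand between 94.4 and 105 kb.

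Repeats of other members gave fewer calls. In the authors' deposited table, 3 intronic loci of Mmp2 and 2 of Adamts14 were higher, and 1 each in Adamts7, Adamts10 and Adamts17. An A and T rich stretch in the 3′ untranslated region of Mmp13 had a log2 fold change of -4.29 with an FDR of 1.48e-27 in the authors' deposited table, and an intronic B2_Mm2 element had -2.92. In Mmp28, 24 of 27 loci lay below 0 in the authors' deposited table (median -1.94) and 0 passed. In Timp2, 1 of 76 loci was lower, an L1M4 element in the authors' deposited table.

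Genes that regulate or meet these enzymes were read from 7 lists, with 42 of their tested genes passing the test. Over all tested genes 30.3% passed, 14.1% higher and 16.1% lower, and the counts of each list below stand beside these shares. Of other inhibitors and cofactors, 6 of 16 were tested, 1 rose and 3 fell, with a median log2 fold change of -0.17, beside -0.02 over all tested genes. Pcolce2, a collagen-binding enhancer of procollagen processing, had a log2 fold change of 0.93, and the hyaluronan receptor Cd44 had -0.86, caveolin gene Cav1 -0.33 and the clearance receptor Lrp1 -0.61. Of the plasminogen activation system, which activates pro-MMPs outside the cell, 10 of 15 were tested, 2 rose and 3 fell, with a median of 0.08. Log2 fold changes were 3.88 for Thbd, thrombomodulin, 0.54 for the urokinase gene Plau, -0.56 for its receptor Plaur and -0.30 for Anxa2. Of the proprotein convertases, which cleave the propeptides of membrane-type MMPs and ADAMTS enzymes, 4 of 9 were tested and 0 passed edgeR's test, with a median of -0.165. None had an unadjusted p under 0.05 with edgeR (0 of 4), DESeq2 (0 of 4) or limma-voom (0 of 4), and the lowest edgeR adjusted p was 0.172, for Pcsk7. Their log2 fold changes were -0.35 for Furin, -0.19 for Pcsk7, -0.14 for Mbtps1 and 0.08 for Pcsk4.

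Among substrates and related enzymes, single genes differed by large factors. Of the ADAM proteinases and their iRhom partners, 8 of 16 were tested, 2 rose and 3 fell (median -0.20), with log2 fold changes of 5.44 for Adam33, 0.60 for Rhbdf2, -0.45 for Adam15 and -1.10 for Adam8. Of other zinc metalloproteinases of the matrix, 4 of 10 were tested and all 4 rose (median 1.70), with log2 fold changes of 1.85 for Ece1, 1.65 for Pappa, 0.70 for Bmp1, the procollagen C-proteinase, and 1.74 for Mme. Of the matrix substrates, 15 of 23 were tested, 6 rose and 5 fell, with a median of 0.13. The lowest adjusted p among them were those of Col3a1, with a log2 fold change of 6.43, Tnc, with 6.64, Dcn, with 1.20, and Col4a1, with 1.13. Of the microfibril and elastic fibre partners, 17 of 22 in the table were tested, 6 rose and 7 fell (median -0.26), with log2 fold changes of 5.36 for Fbln5, 3.07 for Emilin1, -1.19 for Loxl4 and -1.04 for Ltbp1. A count of 0 in this table was read with care: Col1a2, whose product pairs with that of Col1a1, had 2 counts in Trp53_KO and 1 in Trp53_WT, while Col1a1 averaged 551 CPM in Trp53_KO and 145 CPM in Trp53_WT.

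Markers of other cell types moved beside the members. Of all tested genes 14.1% were higher and 16.1% lower, and the counts of each list stand beside these shares. All 4 tested fibroblast markers of 8 were higher in Trp53_KO, with a summed level of 695 to 849 CPM in Trp53_KO and 226 to 288 CPM in Trp53_WT. That sum was mostly Col1a1, at 551 CPM in Trp53_KO and 145 CPM in Trp53_WT, and Dcn, at 235 CPM in Trp53_KO and 102 CPM in Trp53_WT. Thy1 and Dpt had at most 1 count in any library, and Lum and Pi16 had no count. Of the endothelial list 3 of 7 were tested, 2 rose and 1 fell, with Cdh5 and Kdr at 0. Its sum of 31.3 to 38.7 CPM in Trp53_KO and 16.3 to 17.5 CPM in Trp53_WT was mostly Esam, at 32.8 CPM in Trp53_KO and 15.0 CPM in Trp53_WT. Pecam1 rose at a low level, with 36, 39 and 31 counts in Trp53_KO, against 3, 3 and 2 counts in Trp53_WT. Its log2 fold change was 3.64 (edgeR adjusted p = 3.55e-05). Egfl7 fell (log2 fold change -0.90, edgeR adjusted p = 0.0172), and Vwf had 0 counts in every Trp53_KO library, against 4, 6 and 6 counts in Trp53_WT. The immune list summed to 4.10 to 6.02 CPM in Trp53_KO and 27.3 to 30.0 CPM in Trp53_WT, of which only Cd14 was tested, and Cd3e, Itgam and Adgre1 had no count. The granulosa and theca list summed to 158 to 182 CPM in Trp53_KO and 28.2 to 29.8 CPM in Trp53_WT, with Foxl2, Fshr and Cyp19a1 at 0. Most of that sum was Inhbb, at 144 CPM in Trp53_KO and 24.2 CPM in Trp53_WT, and of 4 tested genes 3 rose and Amh was not called. The smooth muscle list summed to 2.50 to 3.38 CPM in Trp53_KO and 1.04 to 1.56 CPM in Trp53_WT. Of its 3 tested genes 2 rose and Des was not called. The part of these differences in the changes of the proteinases was not tested.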

How the data were processed

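For each of 6 RNA-seq libraries the authors deposited unnormalized whole-number counts by gene symbol. The submitters' processing notes name the tools STAR, featureCounts and edgeR and the build mm10. Tool versions, annotation and counting strand were not given in the sources used here. A deposited table of repeats gives a fold change, checked to be on the log2 scale (median ratio 1.03 to the gene's own log2 fold change over 550 loci), and an FDR, an adjusted p-value.

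Counts were analysed with edgeR 4.0.16, limma 3.58.1 and DESeq2 1.42.0 in R 4.3.3, and exact intervals with scipy 1.17.1. Of 41327 genes, 18744 had no count while 13651 passed the filter of filterByExpr. After TMM scaling, all 6 libraries entered a quasi-likelihood model of genotype alone, with Benjamini-Hochberg adjustment and a threshold of 0.05. The script was tested on simulated data. The SE, the size of the log2 fold change over the square root of F, is approximate. Intervals at the 95% level cover counting error only. Gene coordinates and exon lengths come from the GENCODE annotation of the reference, and promoter windows from RefSeq, by symbol.

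The members and lists were chosen with earlier results of these data known. Every tested member is named, with values per library for called members with a change of at least 2-fold or a mean of at least 10 CPM in a group, for the Timp genes and for members near the filter, and, per list, the 4 or fewer genes lowest in adjusted p. Alternatives were other size factors, filters, thresholds and tools, a replicate block and leaving out each library. Libraries that share a replicate number did not deviate together, with correlations of -0.053, 0.077 and -0.122.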

Additional observations from a re-analysis of the deposited data

How the results depend on the processing

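Of the 25 tested members, 17 kept their direction and their side of the threshold under all 13 gene-level alternatives. Mmp14 and Mmp23 were not tested with a filter of 1 CPM in 3 libraries and kept theirs under the others, and the other exceptions among called members are given with their values in the report. Leaving out 1 library at a time gave 12 to 14 members higher, 6 to 9 lower, 2970 to 4935 genes called in all and 36 to 50 called genes of the companion lists. At least a 2-fold change left 7 members higher, 5 lower, 1258 genes and 21 companion genes, and an adjusted p under 0.01 left 2578 genes. Mmp17, not called in any fit, had log2 fold changes of -0.389 to 0.0241 when 1 library was left out, above 0 without Trp53_KO replicate 2. With a replicate block, 14 members were higher, 9 lower and 3806 genes called, and the numbers did not pair the samples, so the fit without the block stands. DESeq2 called 13 higher and 9 lower members, limma-voom 14 and 9, and no filter 15 and 10, adding Adamts2 and Mmp3. The median log2 fold change of all genes stayed between -0.02 and 0 under every scaling and filter. For members with few counts, depth limits the precision to the intervals given.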
